A study of Mus musculus with 90 samples.

Results

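Cytochrome P450 enzymes of families 1 to 4 are haem proteins of the endoplasmic reticulum that oxidise drugs, pollutants, fatty acids, arachidonic acid and steroids. They receive electrons from NADPH through P450 oxidoreductase (Por), and most are encoded in clusters of closely related genes. The liver is their best known site, and intestine, kidney and lung carry smaller, distinct sets. Several are regulated by the xenobiotic receptors AhR, PXR (Nr1i2) and CAR (Nr1i3) or by the fatty acid receptor PPARα, and in rodent liver some differ between the sexes.

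The members were all genes whose mouse symbol is Cyp followed by a family number from 1 to 4, a letter and a number. They came to 74 of the 20414 genes in the expression matrix. Family 1 had 3 of them, family 2 had 47, family 3 had 7 and family 4 had 17. Symbols that end in a further letter, such as Cyp3a41a and Cyp4a12a, fell outside the rule.

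The data were RNA-seq profiles of 15 tissues from female C57BL/6 mice aged 10 weeks, by their labels, taken in estrus or in diestrus as judged by vaginal smears. The study's methods write the strain as C57BL/6J and state a different age. Each tissue had 3 libraries per phase, 90 in all, and the study's methods name 3 mice per phase. The labels name no treatment and no transgene, in either phase. Values were treated as FPKM, read counts scaled to transcript length and library size. The header of the matrix does not name the unit, and the comparison of levels between genes rests on this reading.

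Reads per library could be estimated from the matrix only roughly, from the steps between low values. The estimates were 8130000 to 32200000 in 89 libraries with a median of 15000000. This median is below the approximate number of reads per sample that the study's methods state. The estimate was 72200 in BAT (brown adipose tissue) estrus replicate 3, where 12048 genes were listed at 0 against 2404 to 4820 elsewhere. Liver, kidney and duodenum each had their own marker list highest, at 58540 to 81716 FPKM for the hepatocyte list, 30463 to 45967 for the kidney list and 2719 to 10044 for the enterocyte list. Some libraries carried markers of another tissue. Summed gastric markers reached 7562 FPKM in duodenum estrus replicate 1 and at most 2.16 in the other 5 duodenum libraries. Airway and alveolar genes reached 1302 FPKM in aorta diestrus replicate 3 and at most 5.44 in the other aortas. Oviduct genes reached 2898 FPKM in uterus estrus replicate 3 and 1660 in ovary estrus replicate 3. Squamous epithelial genes reached 2225 FPKM in the same uterus and at most 68.7 in the other 5 uteri. The airway, oviduct, squamous and Schwann cell gene lists were chosen after these values were seen, and so was the set of 5 libraries set apart here.

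Upstream sequence is shown for 6 members: the most abundant P450 of liver, 4 further liver members and 1 duodenal member that carry a shared motif. RefSeq promoters (GRCm38.p6, 250 bases before to 50 after the start) were at hand for 62 of the 74 members. In all, 15 motif spellings for 9 kinds of site were searched on both strands, and the 2 marked in the sequences were picked after all counts were seen. CAAAGTNCA, one spelling of a site for the factor HNF4, was present in 12 of the 62 member promoters (19.4%) and in 380 of all 27025 promoters (1.41%). It was in 11 of 32 promoters of members highest in liver, in 1 of 11 of those highest in duodenum and in 0 of 3 of those highest in kidney. The stricter spelling CAAAGTCCA, contained in it, was in 8 of the 62, and both longer HNF4 spellings were in 0. TATAAA was in 26 of the 62 (41.9%) against 14.2% of all promoters, and in 20 of 32 of those highest in liver. For C/EBP, TTGCNNAA was in 15 members (24.2% against 10.8% of all promoters) and TTGCGCAA in 0. For AhR, GCGTG was in 13 (21.0% against 32.5%) and TNGCGTG, which contains it, in 1 (1.61% against 5.12%). AGATAA, for a GATA factor, was in 14 (22.6% against 11.4%). TTTATNG, for CDX, was in 8 (12.9% against 11.3%) and can overlap TATAAA on the other strand. TGTTTAC, for FOXA, was in 6 (9.68% against 3.55%). Of 2 HNF1 spellings, 1 was in 2 members (3.23% against 0.437%) and the other in 0, and the estrogen receptor palindrome was in 0. Genes of one cluster share ancestry, so their promoters are not independent, and a match is a run of letters and not a shown binding site.

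The 150 bases before the start of each gene follow, 5′ to 3′ in the direction of the gene, with both motifs, on either strand, in capitals; the promoters printed were picked after the motif counts were seen.
Cyp3a11 (chr5:145879855-145880004, minus strand): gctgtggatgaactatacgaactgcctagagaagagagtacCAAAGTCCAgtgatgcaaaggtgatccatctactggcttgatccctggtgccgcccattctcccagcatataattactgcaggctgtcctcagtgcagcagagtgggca
Cyp2d26 (chr15:82794246-82794395, minus strand): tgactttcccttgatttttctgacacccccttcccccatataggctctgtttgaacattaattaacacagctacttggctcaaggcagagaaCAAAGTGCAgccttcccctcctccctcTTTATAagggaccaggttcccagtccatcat
Cyp2c50 (chr19:40089529-40089678, plus strand): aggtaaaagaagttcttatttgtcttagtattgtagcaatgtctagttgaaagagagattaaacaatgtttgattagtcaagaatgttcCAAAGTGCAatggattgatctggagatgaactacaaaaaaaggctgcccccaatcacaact
Cyp2c70 (chr19:40187287-40187436, minus strand): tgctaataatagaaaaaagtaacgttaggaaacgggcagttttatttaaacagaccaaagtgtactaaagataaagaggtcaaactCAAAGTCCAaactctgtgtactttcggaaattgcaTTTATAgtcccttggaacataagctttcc
Cyp2c65 (chr19:39060856-39061005, plus strand): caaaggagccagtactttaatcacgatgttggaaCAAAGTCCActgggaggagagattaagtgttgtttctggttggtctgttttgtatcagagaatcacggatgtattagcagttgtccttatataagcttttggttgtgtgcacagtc
Cyp2e1 (chr7:140763669-140763818, plus strand): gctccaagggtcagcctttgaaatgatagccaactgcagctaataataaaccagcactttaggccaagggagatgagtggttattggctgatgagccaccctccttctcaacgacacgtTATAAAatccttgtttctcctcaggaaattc
The CAAAGTNCA run began 109 bases before the start in Cyp3a11, 116 in Cyp2c65, 64 in Cyp2c70, 61 in Cyp2c50 and 58 in Cyp2d26. Cyp2c65 carried it, and its transcript was at 0.0967 FPKM in liver and 235 in duodenum. Cyp2e1, the highest member in liver, had TATAAA and no CAAAGTNCA in this window.

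Of the 74 members, 66 reached a mean of 1 FPKM in some tissue, and 37 of those were highest in liver. This is 56.1% of the 66, against 4.04% of the 17289 genes that reached the same level. Duodenum was the highest tissue for 11 members, kidney for 7, stomach for 3 and hypothalamus for 2. BAT was the highest for Cyp2u1 (4.27 FPKM), WAT (white adipose tissue) for Cyp4f17 (18.9), vein for Cyp2j12 (3.57), spleen for Cyp4f18 (36.4), ovary for Cyp1b1 (82.7) and uterus for Cyp3a57 (2.83). For 47 members the 6 values of the highest tissue lay above all 6 of the next, and 37.2% of all genes did the same. In 26 members (39.4%) at least 90% of the summed level over the 15 tissues lay in 1 tissue, as in 4.59% of all genes. Only Cyp2d22, Cyp4f13 and Cyp4f17 reached 1 FPKM in all 15 tissues. Just above the limit was Cyp2b19 (1.02 FPKM, stomach), and just below it were Cyp2t4 (0.92, hypothalamus) and Cyp2j13 (0.81, WAT).

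**Figure D1:**
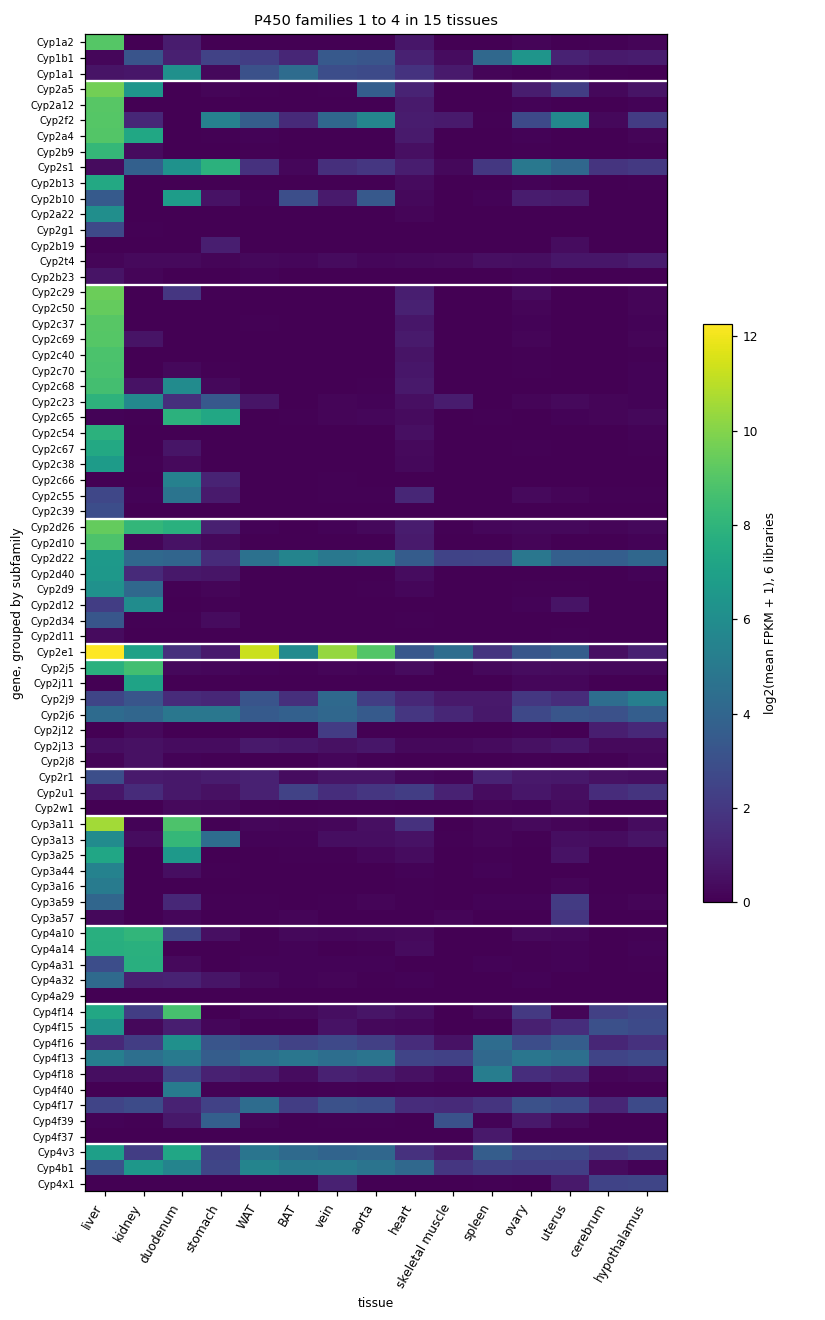
Mean level of each of the 74 members (rows, grouped by subfamily) in each of 15 tissues (columns), as log2(mean FPKM + 1) over 6 libraries. Most of the 2a, 2b, 2c, 2d and 3a rows are brightest in liver, and 37 of the 66 members that reached 1 FPKM are highest there.

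Added together, the members made up 3.07% ± 0.206 of all FPKM in liver (SD, n = 6), 0.549% ± 0.198 in WAT, 0.476% ± 0.195 in duodenum (0.520% without the library with gastric markers), 0.431% ± 0.0433 in kidney and 0.307% ± 0.0923 in vein. In skeletal muscle the share was 0.00964% ± 0.00223. The liver sum was spread over many enzymes, with 28 members at 100 FPKM or more and 42.4% of it in the 3 highest. In WAT the sum was nearly a single gene, since Cyp2e1 held 92.9% of it, and in vein Cyp2e1 held 87.0%. A whole-tissue level cannot tell fewer cells of a type from less RNA per cell.

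Liver was led by Cyp2e1, which oxidises ethanol, acetone and paracetamol. Its levels were 4304, 4853 and 4859 FPKM in the 3 estrus livers and 6201, 4921 and 4517 in the 3 diestrus livers. The mean of 4943 ± 662 FPKM (SD, n = 6) was the highest of any member in any tissue. Cyp3a11, a main drug-oxidising P450 of mouse liver and gut, followed at 1528 ± 666. It ranged from 795 in estrus replicate 3 to 2417 in estrus replicate 1, so the replicates of 1 phase spanned the whole range. Cyp2a5, the coumarin 7-hydroxylase, averaged 816 ± 357 and was lowest in estrus replicate 1 at 236. Cyp2c29 averaged 741 ± 172, Cyp2d26 655 ± 33.3 and Cyp2c50 652, between 564 and 745. The spread thus differed between members of similar level, with Cyp2d26 between 608 and 707 in all 6 livers.

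Kidney had another order. Cyp2j5, which epoxidises arachidonic acid, was first at 377 ± 57.7 FPKM (SD, n = 6) and reached 217 ± 15.7 in liver. Cyp2d26 was at 283 ± 35.5. The ω-hydroxylases Cyp4a10, Cyp4a14 and Cyp4a31, which act on fatty acids and belong to the subfamily controlled by PPARα, followed at 268 ± 54.9, 224 ± 60.6 and 215 ± 57.7. These 3 were highest and lowest in the same kidneys. Cyp4a10 was highest in estrus replicate 3 (352) and lowest in diestrus replicate 2 (192), and so were Cyp4a14 (322 and 152) and Cyp4a31 (322 and 160). Cyp2a4, a steroid 15α-hydroxylase, was sixth at 156 ± 36.9. Cyp2j11 was at 140 ± 17.9 there and at most 0.17 as a mean elsewhere.

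Duodenum was led by Cyp3a11 at 461 ± 345 FPKM (SD, n = 6), Cyp4f14, a leukotriene B4 hydroxylase, at 422 ± 174 and Cyp3a13 at 292 ± 155. Cyp2c65 was at 235 ± 62.5, Cyp2d26 at 218 ± 96.2 and Cyp4v3 at 151 ± 79.7. The sum of the 74 members was 1469, 3872 and 3581 FPKM in the 3 estrus duodena and 1902, 2241 and 2019 in the 3 diestrus duodena. The summed enterocyte markers (Fabp2, Vil1, Alpi, Sis and Lct) were 2719, 10044 and 7621 in estrus against 3388, 4956 and 5226 in diestrus, lowest and highest in the same libraries as the P450 sum. Estrus replicate 1 had the lowest of both and is the library with gastric markers. The part of these differences in the P450 levels was not tested.

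**Figure D2:**
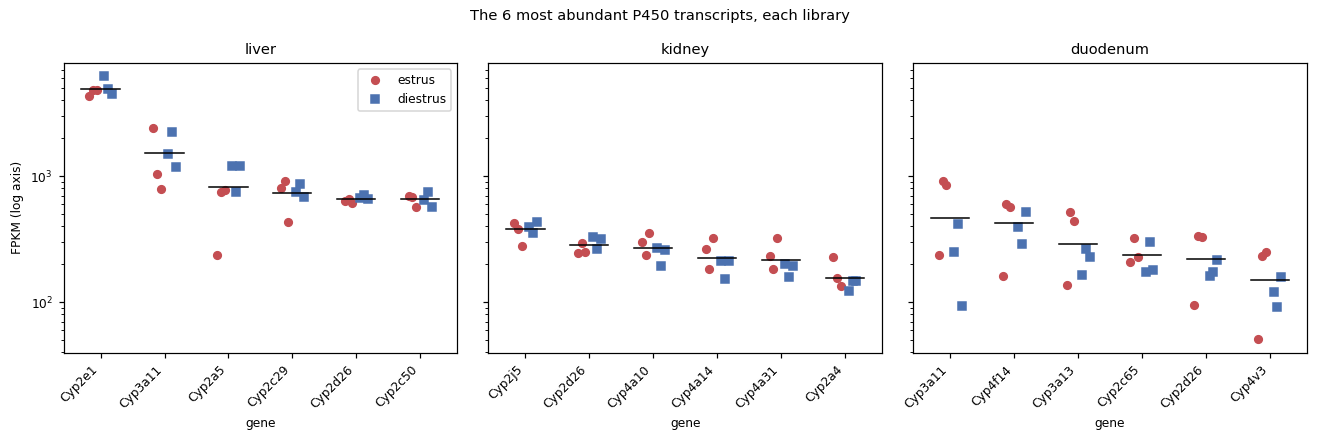
FPKM (log axis) of the 6 members with the highest mean in liver, kidney and duodenum; each point is 1 library, circles are estrus, squares are diestrus and lines are means of 6 libraries. Cyp2e1 in liver stands alone at 4304 FPKM or more, and Cyp3a11 in duodenum runs from 92.7 to 921 FPKM.

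Family 1, which is induced through AhR, was divided among tissues. Cyp1a1, an oxidase of polycyclic aromatic hydrocarbons, was highest in duodenum at 70.8 ± 40.0 FPKM (SD, n = 6), with BAT next at 19.0 ± 5.84, and only 0.583 in liver. Cyp1a2, which oxidises caffeine and lies beside Cyp1a1 on chromosome 9, was at 525 ± 62.0 in liver and at means of at most 0.913 in all other tissues. Cyp1b1, which oxidises steroids and aromatic hydrocarbons outside the liver, was at 82.7 ± 8.13 in ovary, at 16.7 ± 2.78 in spleen and at 0.152 in liver. In each case the 6 values of the highest tissue did not overlap those of the next.

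The gene clusters were not uniform either. All 15 members of subfamily 2c lie on chromosome 19, and 12 were highest in liver. The first 3 in order along the chromosome, Cyp2c55, Cyp2c65 and Cyp2c66, were highest in duodenum, at 25.2, 235 and 40.5 FPKM, and Cyp2c65 also reached 162 ± 40.9 in stomach. Subfamily 2b split likewise. Cyp2b9 and Cyp2b13, known as female-predominant liver genes, were at 284 ± 51.5 and 167 ± 38.6 in liver and at means of at most 0.405 and 0.273 in every other tissue, while Cyp2b10, the classical CAR target, was at 110 ± 76.2 in duodenum and 10.2 ± 4.80 in liver. Cyp2d12 was highest in kidney (61.9 ± 20.9), in a cluster on chromosome 15 whose other 6 members above the limit were highest in liver. In subfamily 4f, Cyp4f14, Cyp4f16 and Cyp4f40 were highest in duodenum, Cyp4f15 and Cyp4f13 in liver, Cyp4f18 in spleen, Cyp4f17 in WAT and Cyp4f39 in stomach.

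Closely related transcripts share sequence. In GENCODE M21 transcripts, the median member had 92.8% of its 50-base windows found in no other gene. The share was under 50% for Cyp2c67 (47.2%), Cyp2c69 and Cyp2c40, so the division of reads among these 3 is uncertain. Cyp2a4 shared 36.1% of its windows with Cyp2a5. Cyp2c68 shared 35.6% with Cyp2c40, Cyp4a32 shared 32.6% with Cyp4a10 and Cyp3a59 shared 26.8% with Cyp3a25. The division of reads within these pairs is uncertain too.

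Liver and kidney were compared over 12 libraries with limma on log2(FPKM + 1), with phase as a covariate, and a gene was called where its log2 difference reached 1 in either direction with an adjusted p not above 0.05. Differences on this scale understate the change of low genes. By the study's account the tissues came from the same 3 mice per phase. The fit did not pair libraries by mouse, so the SEs and p-values of the tissue comparisons are unpaired. Of 56 members tested, 41 were higher in liver and 6 lower, while 44.1% of all 12346 genes tested were called, 8.28% higher and 35.8% lower in liver. The members' median difference was 3.27 against -0.74 for all genes. All 13 members of 2c tested and all 6 of 3a were higher in liver. The filter for testing was a mean of 1 FPKM over the 12 libraries. The 6 of 3a had kidney means of at most 0.337 FPKM. They passed the filter through liver alone, so only this direction was open to them. The same held for most of 2c, such as Cyp2c37, Cyp2c40 and Cyp2c70, at means of at most 0.7, 0.543 and 0.648 outside liver. Cyp2c23 had a mean of 53.0 in kidney. Cyp2a12, Cyp2b9 and Cyp2b13, at means of at most 0.828, 0.405 and 0.273 outside liver, also passed through liver alone. The largest differences were those of Cyp3a11 (10.34 ± 0.23 SE, adjusted p = 6.98e-14), Cyp2c29 (9.49 ± 0.14) and Cyp2c50 (9.34 ± 0.07). In the other direction stood Cyp2j11 (-7.12 ± 0.08, adjusted p = 4.85e-17), Cyp4a31 (-4.85 ± 0.14) and Cyp2d12 (-3.71 ± 0.19). Cyp2j11, at a mean of 0.00667 FPKM in liver, passed the filter through kidney alone, so only this direction was open to it. Cyp4a10 and Cyp4a14 were not called, at -0.36 ± 0.15 and -0.12 ± 0.20, and Cyp2j5 missed the fold limit at -0.78 ± 0.10.

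Liver and duodenum differed in 54 of 58 members tested, 42 higher in liver and 12 lower, where 46.1% of all 12374 genes were called, 11.0% higher and 35.1% lower in liver. The median was 3.12 for members and -0.65 for all genes. The largest differences were Cyp2e1 (10.59 ± 0.12, adjusted p = 8.76e-16), Cyp2a5 (9.49 ± 0.29) and Cyp2c50 (9.34 ± 0.09), the last listed at 0 in all 6 duodena. Lower in liver were Cyp2c65 (-7.71 ± 0.15, adjusted p = 1.93e-13), Cyp2s1 (-5.57 ± 0.33) and Cyp1a1 (-5.33 ± 0.29). The filter was again a mean of 1 FPKM over the 12 libraries. Members near 0 in 1 of the tissues passed it through the other alone, so only 1 direction was open to them. Such were Cyp2c50, and Cyp2b9 and Cyp2b13, at means of at most 0.405 and 0.273 outside liver. Cyp2c65 and Cyp1a1 passed through duodenum alone, the latter at a mean of 0.583 in liver. Cyp2s1 in duodenum was 216 FPKM in estrus replicate 1, the library with gastric markers, and 41.1 to 54.2 in the other 5. Stomach was the highest tissue of Cyp2s1, at 234 ± 68.2. Of the 7 members of 4f tested, 4 were lower and 2 higher in liver.

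Fewer members passed the filter for kidney and duodenum. Of 38 tested, 15 were higher in kidney and 16 lower, where 37.6% of all 13174 genes were called, 20.7% higher and 16.9% lower in kidney, and the medians were 0.07 for members and 0.11 for all genes. Higher in kidney were Cyp2j5 (8.29 ± 0.11, adjusted p = 6.16e-15), Cyp4a14 (7.74 ± 0.15) and Cyp4a31 (7.44 ± 0.16). Lower were Cyp3a11 (-8.32 ± 0.41, adjusted p = 1.59e-09), Cyp2c65 (-7.77 ± 0.16) and Cyp3a13 (-7.61 ± 0.28). All 3 members of 3a tested were lower in kidney, and 3 of 4 of 4a were higher. The 3 of 3a had kidney means of at most 0.337 FPKM. They passed the filter through duodenum alone, so only this direction was open to them. Cyp2j5, Cyp4a14 and Cyp4a31, at 0.197, 0.0183 and 0.227 in duodenum, likewise passed through kidney alone. Cyp2c65, under 1 FPKM in kidney, passed through duodenum alone.

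**Figure D3:**
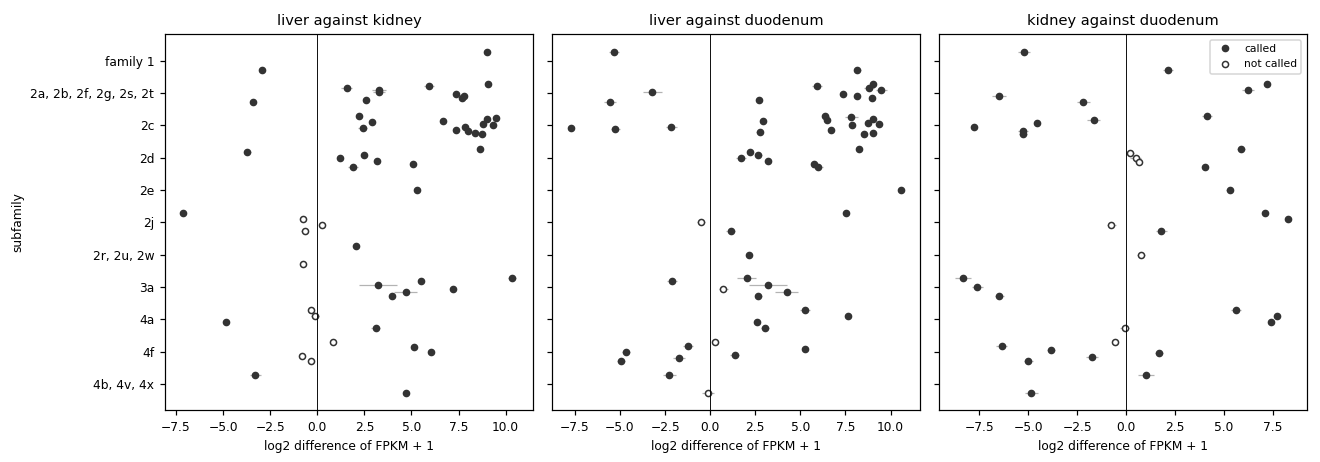
Difference of each member tested between liver and kidney, liver and duodenum, and kidney and duodenum, as log2 of FPKM + 1, first tissue minus second, by subfamily; bars are SE, filled circles are called and open circles are not, and height within a row only separates points. In the first 2 panels most 2a to 2e and 3a points lie right of 0, and in the third the 3a points lie left and the 2j and 4a points mostly right.

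Genes that act with the P450s were compared by lists whose genes were named from textbook knowledge. Among all genes tested, 8.28% were higher and 35.8% lower in liver than kidney (median difference -0.74), and 11.0% were higher and 35.1% lower in liver than duodenum (median -0.65). Of 9 electron partners and haem enzymes, 3 were higher in liver than kidney and 0 lower (median difference 0.28). They were Cyb5a, the electron donor cytochrome b5 (1196 FPKM in liver, 540 in kidney), Cyb5r3 and Pgrmc1. Por was at 214 FPKM in liver, 168 in kidney and 103 in duodenum. Alas1, which begins haem synthesis, was at 268 in liver, 117 in kidney and 68.3 in duodenum. Of 19 regulators tested, 11 were higher in liver than kidney and 0 lower (median 1.90), and 10 were higher and 1 lower in liver than duodenum (median 1.32). Nr1i3 was at 94.4, 0.312 and 38.7 FPKM in liver, kidney and duodenum, Cebpa at 211, 24.4 and 20.3, and Hnf4a at 179, 200 and 164. Of 20 other phase I enzymes 14 were higher and 5 lower in liver than kidney, and of 29 conjugating enzymes 19 and 6, with medians of 2.45 and 1.71. Of 16 P450s of the other families tested, 8 were higher and 3 lower in liver than kidney (median 0.78). Against duodenum, 11 of the 20 phase I enzymes were higher in liver and 5 lower (median 1.76). Of the conjugating enzymes 17 were higher and 6 lower (median 1.89), and of 13 P450s of the other families tested 9 and 0 (median 2.23).

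Outside liver, kidney and gut, Cyp2e1 was the most abundant member in WAT, vein, aorta, BAT and skeletal muscle. In WAT it was 1826, 1550 and 3299 FPKM in estrus against 1679, 2689 and 3922 in diestrus. The mean was 2494 ± 972 (SD, n = 6). In vein the mean was 1282 ± 464 and in aorta 508 ± 291, but in BAT only 58.2 ± 39.3. The adipocyte markers Adipoq, Lep, Plin1 and Cidec summed to 4300 to 6118 FPKM in WAT, 1124 to 3206 in vein, 1600 to 2056 in BAT and 182 to 2315 in aorta. The aorta lowest in them, estrus replicate 1 (182), was also lowest in Cyp2e1 (60.4, against 328 to 876 in the other 5), and their part in the Cyp2e1 level was not tested.

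In the brain Cyp2j9 led with 38.5 ± 2.13 FPKM in hypothalamus and 19.8 ± 2.77 in cerebrum (SD, n = 6), without overlap. Cyp4x1 was at 4.97 and 4.55 in the same tissues, where the values overlapped, and at most 1.21 as a mean elsewhere. Cyp4f18, which acts on leukotriene B4 in leukocytes, led in spleen at 36.4 ± 6.83. Cyp4b1 led in heart at 16.8 ± 2.40, although kidney (89.0 ± 52.4) was its highest tissue. Cyp2f2, an airway enzyme that activates naphthalene and is also hepatic in mouse, led in uterus through 1 library. It was 15.7, 5.97 and 279 FPKM in the estrus uteri and 2.23, 6.15 and 3.42 in the diestrus uteri. The value of 279 belongs to the library with oviduct and squamous genes.

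Heart held 17 members at 1 FPKM or more. Limits of 100 FPKM in liver and 1% of the liver level were set after the heart values were seen. Of the 28 members at 100 FPKM or more in liver, 27 stood in heart at 0.121% to 0.240% of their liver level, with a median of 0.158%. The hepatocyte markers Alb, Ttr, Apoa1, Serpina1b and Fgb stood there at 0.154%, 0.160%, 0.179%, 0.148% and 0.152%. The exception was Cyp4v3, at 1.93%. In the other tissues the median of these 27 was 0.0606% or less of liver. The part of hepatocyte transcripts in these heart levels was not tested.

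**Figure D4:**
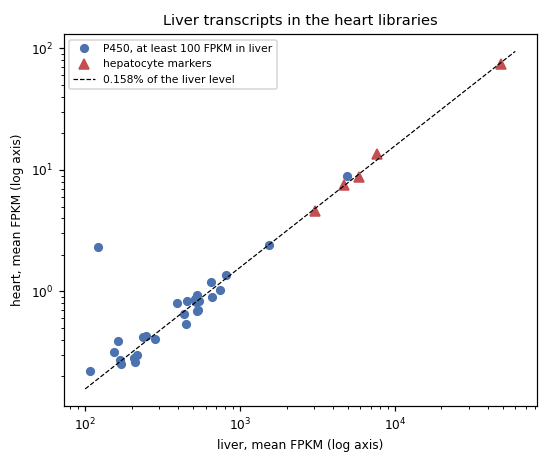
Mean FPKM in heart (vertical, log axis) against liver (horizontal, log axis), 6 libraries each, for the 28 members at 100 FPKM or more in liver (circles) and 5 hepatocyte markers (triangles); the dashed line is 0.158% of the liver level. All points but Cyp4v3, the circle at the upper left, lie near the line.

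Estrus and diestrus were compared within each tissue to ask whether P450 levels follow the estrous cycle. The study made this comparison by another method, DEGSeq, with the same limits on the log2 difference and the adjusted p. It reported genes that differed between the phases for each tissue. None of the 66 members tested in at least 1 tissue was called in any of the 15 tissues by limma (0 of 287 tests), where 0.00108% of all tests were called. At an unadjusted p under 0.05 there were 22 of the 287 (7.67%), against 7.84% of all tests, and in 39 the phases did not overlap, as in 15.0% of all tests. One fit of all 90 libraries, which shares 1 estimate of the spread over tissues, called 11 of the 287 in place of 0, where it called 1.65% of all tests. These were 3 of 30 members in duodenum (4.32% of all genes), 2 of 19 in stomach (2.94%), 2 of 14 in BAT (8.94%) and 4 of 17 in uterus (6.63%). The lowest adjusted p of a member was 0.0909, for Cyp4f39 in skeletal muscle. That gene, a hydroxylase of very long fatty acids, was 9.09, 9.32 and 10.5 FPKM in estrus against 4.49, 6.33 and 5.45 in diestrus, without overlap, a log2 difference of 0.73 ± 0.12 (SE).

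In liver, 4 of 52 members had an unadjusted p under 0.05 (5.6% of all genes did), and none had an adjusted p below 0.81. Cyp2b13 was 157, 103 and 157 FPKM in estrus against 193, 217 and 175 in diestrus (-0.50 ± 0.18, adjusted p = 0.811). Cyp2d40 was 97.3, 97.8 and 97.1 in estrus against 82.8, 88.9 and 82.9 in diestrus (0.20 ± 0.07). Cyp4a31 was 10.4, 7.37 and 5.89 in estrus against 5.29, 5.51 and 4.64 in diestrus (0.50 ± 0.18). For these 3 the phases did not overlap, but they differed by less than 1 on the log2 scale. In kidney 0 of 27 had an unadjusted p under 0.05 (2.87% of all genes), and the differences lay between -0.57 and 0.39. Elsewhere such members numbered 2 of 19 in stomach (7.38% of all genes), 3 of 15 in WAT (5.97%), 1 of 14 in BAT (12.8%), 4 of 17 in vein (12.1%), 0 of 16 in aorta (3.11%) and 1 of 17 in heart (6.1%). They numbered 2 of 8 in skeletal muscle (20.8%), 1 of 11 in spleen (3.51%), 1 of 16 in ovary (5.96%), 1 of 17 in uterus (3.74%), 0 of 13 in cerebrum (3.0%) and 1 of 15 in hypothalamus (13.2%). The calls among all genes were 1 in skeletal muscle (0.00936%), 1 in spleen (0.00798%) and 0 in each other tissue (0.0%).

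In duodenum 1 of 30 members had an unadjusted p under 0.05 (13.5% of all genes). This was Cyp4f40, at 13.8, 22.3 and 31.5 FPKM in estrus against 45.6, 36.5 and 53.6 in diestrus (-1.03 ± 0.31, adjusted p = 0.368). Cyp3a11 was 236, 921 and 850 in estrus against 249, 416 and 92.7 in diestrus, with overlap (1.42 ± 0.71, adjusted p = 0.397). Cyp4f18 was 13.9, 3.93 and 3.37 in estrus against 3.02, 2.39 and 0.75 in diestrus (1.25 ± 0.54, adjusted p = 0.371). The highest Cyp4f18 value and the lowest Cyp4f40 value were in estrus replicate 1, the library with gastric markers. The phase difference was not called as different between liver, kidney and duodenum for any member, where 0.0% of all genes were called; at an unadjusted p under 0.05 there were 5 of 56 members for liver against kidney (3.25% of all genes), 2 of 58 for liver against duodenum (12.9%) and 1 of 38 for kidney against duodenum (12.0%). The lowest adjusted p was 0.328, for Cyp4f40 in liver against duodenum. Cyp4f40 had means of at most 0.187 FPKM outside duodenum, so it passed the filter through duodenum alone. Its value there (1.05) thus mostly restates its duodenum phase difference of -1.03 with the sign turned, and the same holds against kidney. One fit of all 90 libraries called Cyp2a4 for liver against kidney (0.0486% of all genes were called), Cyp3a11 and Cyp4f40 for liver against duodenum (1.69%) and Cyp4f40 for kidney against duodenum (1.38%). Without duodenum estrus replicate 1, the library with gastric markers, 1 member (Cyp2b10) was called for kidney against duodenum, and 0.315% of all genes were. Cyp2b10 was far lower in kidney than duodenum (-6.48 over all 12 libraries), so this call too rests mainly on duodenum values.

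**Figure D5:**
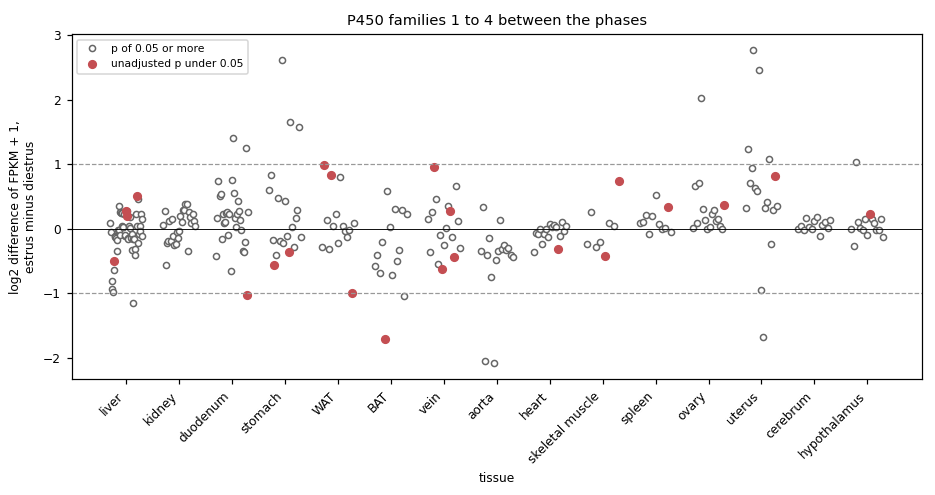
Log2 difference of FPKM + 1, estrus minus diestrus, for each member tested in each tissue; filled circles have an unadjusted p under 0.05, open circles do not, dashed lines mark a difference of 1 and place within a column only separates points. None of the 287 points was called, and the points farthest from 0 are in uterus, stomach, aorta and ovary.

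In vein, Cyp2e1 was 1668, 1639 and 1679 FPKM in estrus against 1152, 537 and 1019 in diestrus (0.95 ± 0.31, adjusted p = 0.412), and Cyp2j9 was 15.5, 13.0 and 12.1 against 19.7, 26.8 and 18.5 (-0.63 ± 0.17, adjusted p = 0.412). The phases did not overlap for either. In BAT, Cyp2e1 was 8.72, 41.7 and 38.6 in estrus against 117, 91.8 and 51.8 in diestrus (-1.71 ± 0.63, adjusted p = 0.346), where estrus replicate 3 is the library of few reads. Cyp4f17 in BAT was 4.32, 3.22 and 0 against 4.32, 6.21 and 4.17, with the 0 in that library. Cyp4f17 in WAT was 9.26, 17.1 and 11.1 in estrus against 23.5, 21.4 and 31.1 in diestrus (-0.99 ± 0.23, adjusted p = 0.791). Cyp2c65 in stomach was 120, 127 and 144 in estrus against 228, 164 and 189 in diestrus (-0.56 ± 0.16, adjusted p = 0.671).

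Other members with an unadjusted p under 0.05 differed by less than 1 on the log2 scale, and none was called. Cyp4f18, the leukotriene B4 hydroxylase, was the 1 such member in uterus, at 2.08, 2.5 and 1.95 FPKM in estrus against 1.2, 0.59 and 0.67 in diestrus (0.81 ± 0.33, adjusted p = 0.897). All 3 estrus uteri lay above all 3 diestrus uteri. In spleen Cyp4f18 was 44.9, 35.2 and 41.6 in estrus against 39.3, 28.5 and 28.6 in diestrus, with overlap (0.34 ± 0.14). Cyp4b1 in heart was 15.1, 13.9 and 15.5 in estrus against 18.2, 17.8 and 20.5 in diestrus, without overlap (-0.32 ± 0.08, adjusted p = 0.792). In skeletal muscle it was 2.28, 2.58 and 2.09 against 2.78, 3.08 and 4.6, again without overlap (-0.42 ± 0.16). Cyp4v3, a fatty acid hydroxylase, was 6.86, 5.95 and 6.37 in the estrus ovaries against 4.45, 4.28 and 5.5 in the diestrus ones, without overlap (0.37 ± 0.13, adjusted p = 0.816). Cyp4f13 was 5.85, 6.55 and 5.96 in estrus against 4.79, 4.89 and 5.52 in diestrus in hypothalamus (0.23 ± 0.07, adjusted p = 0.281). In vein Cyp4f13 was 22.4, 22.1 and 22.4 against 17.7, 20.3 and 17.2 (0.27 ± 0.10). Its phases did not overlap in either tissue. Cyp3a13 in stomach was 17.1, 15.6 and 19.5 in estrus against 22.1, 20.2 and 25.4 in diestrus, without overlap (-0.36 ± 0.13). In WAT, Cyp2f2 was 9.24, 14.6 and 20.2 against 9.89, 8.35 and 4.97 (0.83 ± 0.31), and Cyp1b1 was 10.0, 2.29 and 3.97 against 1.73, 2.61 and 1.37 (0.98 ± 0.42), both with overlap.

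Many of the largest differences lay with 1 or 2 libraries. Cyp2f2 in aorta was 1.56, 5.83 and 8.62 FPKM in estrus against 10.4, 3.28 and 266 in diestrus, and Cyp2a5 was 69.5 in that last library and listed at 0 in the other 5. It is the library with airway genes. Cyp2f2 in ovary was 0.78, 1.58 and 31.8 in estrus against 0.2, 0.14 and 0.62 in diestrus, with 31.8 in the library with oviduct genes. In stomach, Cyp2f2 was 67.8, 1.9 and 154 in estrus against 19.7, 5.36 and 0.03 in diestrus, and Cyp4f39 was 21.2, 0.72 and 39.6 against 6.82, 2.29 and 1.23. Cyp4b1 there was 7.99, 0.62 and 16.9 against 2.64, 0.57 and 0.47. Squamous epithelial genes summed to 4027, 77.3 and 6863 in the same estrus libraries and to 941, 286 and 10.2 in the diestrus ones. In uterus, Cyp2s1 was 38.9, 0.98 and 52.3 in estrus against 1.51, 1.93 and 2.39 in diestrus (2.47 ± 1.17, adjusted p = 0.897; without estrus replicate 2 it was called, at 3.98 with an adjusted p of 0.0474, among 0.0145% of all genes). Cyp3a59 was 0.26, 1.01 and 0.04 in the estrus uteri against 1.12, 1.39 and 16.1, and Cyp4f15 was 11.8 in the uterus with oviduct genes and at most 0.4 in the other 5. Cyp2a5 was 21.5 in that uterus and at most 0.61 in the other 5. Cyp2f2 in hypothalamus was 2.59, 13.1 and 0.96 against 0.2, 1.56 and 2.72, with overlap. The part of these other tissues in the phase differences was not tested.

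Some liver members varied widely among the livers of each phase; they were singled out after their values were seen. Cyp3a16 was 0.14, 132 and 0.61 FPKM in estrus against 45.1, 2.04 and 18.0 in diestrus. Cyp3a44 was 8.13, 135 and 8.84 in estrus against 59.0, 9.07 and 38.3 in diestrus. Both were highest in estrus replicate 2, then in diestrus replicates 1 and 3, and the phase difference of Cyp3a16 was -1.15 ± 1.91 (SE, adjusted p = 0.929). Cyp3a41a, a related gene outside the rule looked at after these values were seen, ran in the same order at 3.51, 1236 and 48.6 in estrus against 734, 69.7 and 476 in diestrus. Cyp3a44 shared 11.5% of its 50-base windows with Cyp3a41a. These 3 are known as female-predominant in mouse liver. Cyp2d9, known as male-predominant, was 107, 29.9 and 111 in estrus against 52.6, 86.0 and 44.8 in diestrus, lowest in the 3 livers where Cyp3a16 and Cyp3a44 were highest. The male-predominant list did not share this order. Cyp4a12a was at 0.02 in those 3 livers and between 1.37 and 3.25 in the others, but Cyp7b1 was highest in estrus replicate 2 at 14.15, and Cyp8b1 there was 118, second to 137 in estrus replicate 1. The female-predominant list did not share it as a whole either. Cyp2b13, also female-predominant, was lowest in estrus replicate 2 at 103, and Cyp2b9 was highest there at 363. Cyp3a41b and Cyp17a1 were highest there too, at 44.6 and 121, and Cyp2c38 was lowest there at 70.8. Cyp2c40, Cyp2c69 and Cyp4a14 were highest in estrus replicate 1, at 692, 637 and 299. Cyp2a4 and Cyp39a1 were highest in diestrus replicate 3, at 881 and 15.25. Of the 13 female-predominant P450s tested in liver between the phases, 0 were called, and of the 4 male-predominant ones, 0 were called, as among all genes there (0.0%).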

How the data were processed

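The authors sequenced RNA of 15 tissues on a BGISEQ platform. Per the submitters' processing notes they used Bowtie2 2.2.5, RSEM 1.2.8 and GRCm38.p5. The deposited matrix was treated as FPKM; its header does not name the unit, and no read counts were used, so no count model was run. The column sums, 353706 to 623534, are not constant, as for FPKM.

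Entrez IDs were named from RefSeq. Genes averaging 1 FPKM or more across the compared libraries were tested with limma 3.58.1 (R 4.3.3, intensity trend) on log2(FPKM + 1), with Benjamini-Hochberg adjustment over all genes tested. Phase differences are estrus minus diestrus over 6 libraries, and tissue differences used 12 libraries with phase as a covariate. The procedure was also run on simulated data with normal noise and without libraries that stand apart. Its outcome there is not given here and is not used as support. Read depth was estimated from steps of low values in 933 short genes and is weakly determined; 7 libraries gave about double the usual value. Depth limits the precision of low values.

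The members, gene lists and motifs were chosen with earlier results of these data known. Named genes were the 6 highest in liver, kidney and duodenum, the highest in every other tissue, up to 3 members per tissue with the lowest unadjusted p under 0.05 between phases, those with a log2 difference of at least 1 between phases, the 3 largest tissue differences in each direction, and textbook members; others were chosen after their values were seen. Same-numbered liver and kidney libraries of a phase deviated together (correlations of 0.111 to 0.276, each closest to its own number), which pairs them by the limit of 0.1 used here. Transcript uniqueness was computed on GENCODE M21 transcripts in windows of 50 bases. No libraries were identical. Protein sequences were not analysed here.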

Additional observations from a re-analysis of the deposited data

Results flagged for a closer look

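Among 31 sets of 6 libraries (members named in liver, kidney or duodenum), 3 held a library whose gap to the others exceeded Dixon's 95% limit for 6 values, and chance gives about 1 in 20. Cyp2e1 in liver was 6201 FPKM in diestrus replicate 1, with the next at 4921. Cyp2a4 in kidney was 228 in estrus replicate 1, with the next at 156. Cyp1b1 in duodenum was 2.82 in estrus replicate 1, the library with gastric markers, with the next at 0.99.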

How the results depend on the processing

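The tissue counts stayed within 1.5 times under a pseudocount of 0.1, no filter, rescaling, a replicate block and one fit of all 90 libraries. With libraries left out in turn, members higher in liver than kidney stayed at 41 and lower at 6, higher in liver than duodenum ran from 41 to 42 and lower stayed at 12, and higher in kidney than duodenum ran from 14 to 15 and lower from 15 to 16. With the replicate block these counts were 41, 6, 42, 12, 15 and 16, the phase calls 0 and the interactions 0, so the block changed no call; in phase comparisons the numbers did not pair the libraries in any of the 15 tissues, nor in pairs with duodenum. One fit of all 90 libraries, which shares one spread over tissues, called 11 members between phases (Cyp3a11, Cyp4f18 and Cyp4f40 in duodenum, Cyp4b1 and Cyp4f39 in stomach, Cyp2e1 and Cyp4f17 in BAT, Cyp2f2, Cyp2s1, Cyp3a59 and Cyp4f15 in uterus; 1.65% of all tests) where the fits within tissues called 0, and 1, 2 and 1 in the interactions of liver with kidney, liver with duodenum and kidney with duodenum (0.0486%, 1.69% and 1.38% of all genes); the cause was not tested. With libraries left out in turn the phase calls ran from 0 to 1 (Cyp2s1 without uterus estrus replicate 2, log2 difference 3.98, adjusted p = 0.0474; 0.0145% of all genes), and the kidney and duodenum interaction from 0 to 1 (Cyp2b10 without duodenum estrus replicate 1; 0.315% of all genes); the other interactions stayed at 0. The Cyp3a16 phase difference in liver ran from -3.36 to 0.080 and the Cyp4v3 difference of liver from duodenum from -0.44 to 0.064 (0.041 without duodenum estrus replicate 2), both uncalled throughout. The count of members highest in liver was 37 with medians, with a minimum of 5 FPKM, without BAT estrus replicate 3 and, added after seeing the data, without the 5 libraries that stand apart; leaving those out took the members' share from 0.0336% to 0.0201% of the library in uterus. A count model was not run because no counts were used.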
